A study of Mus musculus with 38 samples.

Results

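Transcripts of 10 Krüppel-like factors (KLFs) were followed in oligodendrocyte precursor cells (OPCs), the dividing glia that mature into myelinating oligodendrocytes. The genes were Klf2, Klf3, Klf4, Klf6, Klf7, Klf10, Klf11, Klf13, Klf15 and Klf16, which are 10 of 17 Klf genes and of 54532 genes in all. They were named by symbol, and the choice was made with earlier results of these data known. Each of the 10 was among the 22798 genes tested. RNA came from forebrain OPCs of mice at postnatal days 6 to 7, enriched on plates that held back microglia and endothelial cells and then on a plate that caught PDGFRα-bearing cells. All mice carried floxed Bmal1 (fl/fl), and each library pooled 2 mice, with both sexes used. Mice without Cre (NG2::Cre-;Bmal1fl/fl) are called WT, and mice with the NG2 promoter Cre (NG2::Cre+;Bmal1fl/fl) are called KO. The labels describe KO as a hypomorph that lost the DNA-binding domain of BMAL1, a clock transcription factor. The NG2 (Cspg4) promoter is also active in mural cells of blood vessels. Cells were taken at zeitgeber time (ZT) 0, when lights came on, and at ZT6, ZT12, when lights went off, and ZT18. There were 4, 5, 6 and 4 WT libraries and 4, 7, 4 and 4 KO libraries at these times.

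KLFs are transcription factors that bind GC-rich DNA and CACCC elements through zinc fingers at their carboxyl end, while the rest of each protein decides whether it activates or represses. KLF2, KLF4 and KLF6 are quickly induced by growth factor, stress and flow signals, and KLF10 and KLF11 were first described as early genes of TGF-beta. In the oligodendrocyte lineage KLF6 is known to be needed for myelination, and KLF9, which is not among the 10, responds to thyroid hormone. KLF10 and KLF15 are described as outputs of the circadian clock in liver and heart.

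Totals were 19.4 to 39.01 M counts per library (M for 1000000, median 25.9 M). Arntl, the gene of BMAL1, had 19.3 to 33.2 CPM (counts per 1000000 of the TMM-scaled library size) in WT and 17.7 to 23.4 CPM in KO, but these whole-gene counts do not resolve the deleted part and so check nothing. The OPC gene Pdgfra had 2975 to 5106 CPM in every library. Microglia genes were also present at a high level: 15 microglia markers summed to 4591 to 20831 CPM (median 11492) and none was at 0. The 15 OPC markers summed to 13423 to 20328 CPM (median 16339). In KO ZT6 replicate 3 the microglia sum, 20831 CPM, was above the OPC sum, 14569 CPM. KLF levels below are those of this mix of cells. Endothelial markers, a cell type in which Klf2 and Klf4 are well known, summed to 75.0 to 215 CPM over 14 genes, and at most 1 of them was at 0. In bulk RNA, fewer cells of a type and less RNA per cell cannot be told apart. Ribosomal RNA genes, mitochondrial ones included, took a smaller share of counts in 8 libraries, at 0.124 to 0.309% against 0.470 to 1.40% in the other 30. The split was set at the largest gap in this share below its median. These low-rRNA libraries comprised every KO library at ZT18, replicates 4, 5 and 6 of WT at ZT12, and replicate 7 of KO at ZT6. At ZT18 this split and genotype cannot be told apart. The labels name no batch, and p-values measure the spread between these pools of mice.

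Promoter sequences are shown first, since BMAL1 acts through E-boxes and 4 of the KLFs that peaked together at ZT6 have a RefSeq promoter to compare with that of Klf15, which did not. Promoters of 8 of the 10 KLFs were matched by symbol in RefSeq (build GRCm38.p6). Each stretch below runs 5′ to 3′ on the gene's strand and ends before both the RefSeq start and the start in the deposited table. The stretches are chr8:72318812-72319032 (plus strand) for Klf2, chr4:55532476-55532725 (minus strand) for Klf4, chr13:5861239-5861481 (plus strand) for Klf6, chr12:24651121-24651273 (plus strand) for Klf11 and chr6:90462326-90462575 (plus strand) for Klf15. Capitals mark each match within the stretch, on either strand, to the motifs named after the sequences. The stretches of Klf2, Klf6 and Klf11 are shorter because the deposited start lies upstream of the RefSeq start, so a match nearer to the RefSeq start is counted below but not shown.
Klf2: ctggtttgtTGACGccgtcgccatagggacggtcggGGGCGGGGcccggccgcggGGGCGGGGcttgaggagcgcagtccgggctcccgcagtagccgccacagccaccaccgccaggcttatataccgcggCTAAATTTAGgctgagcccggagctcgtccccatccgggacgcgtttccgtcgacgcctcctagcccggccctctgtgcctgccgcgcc
Klf4: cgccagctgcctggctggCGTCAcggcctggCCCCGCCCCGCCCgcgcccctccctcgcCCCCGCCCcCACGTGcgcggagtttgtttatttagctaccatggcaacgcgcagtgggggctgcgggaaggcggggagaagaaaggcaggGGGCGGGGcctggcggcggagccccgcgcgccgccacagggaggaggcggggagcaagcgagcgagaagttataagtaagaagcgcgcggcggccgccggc
Klf6: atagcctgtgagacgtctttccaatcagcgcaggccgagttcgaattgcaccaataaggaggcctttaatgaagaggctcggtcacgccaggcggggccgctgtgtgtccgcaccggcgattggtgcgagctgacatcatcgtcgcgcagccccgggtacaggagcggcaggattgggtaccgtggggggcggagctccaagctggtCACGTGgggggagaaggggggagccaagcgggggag
Klf11: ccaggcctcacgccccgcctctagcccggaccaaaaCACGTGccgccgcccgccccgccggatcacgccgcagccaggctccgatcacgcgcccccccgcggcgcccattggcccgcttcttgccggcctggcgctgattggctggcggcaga
Klf15: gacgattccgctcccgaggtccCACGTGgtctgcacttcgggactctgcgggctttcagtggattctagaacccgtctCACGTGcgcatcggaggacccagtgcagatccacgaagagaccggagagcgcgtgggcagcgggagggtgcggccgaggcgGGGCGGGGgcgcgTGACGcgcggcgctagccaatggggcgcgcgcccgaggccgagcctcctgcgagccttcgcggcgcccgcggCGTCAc

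Motifs were sought on both strands in the 250 bases before the RefSeq start of all 32851 promoters in the table. The E-box CACGTG was found in 4 of the 8 KLF promoters (Klf4, Klf6, Klf11 and Klf15) and in 6.02% of all promoters. It began 182 bases before the start of Klf4, 43 before that of Klf6 and 214 before that of Klf11. Klf15 held 2 E-boxes, 228 and 172 bases before its start. The GC box CCCCGCCC, a sequence that KLF and SP proteins bind, was found in 6 of the 8 (Klf2, Klf3, Klf4, Klf11, Klf13 and Klf15) against 16.1% of all promoters, and the pair in Klf4 that lies farthest upstream overlaps. The short cyclic AMP response element TGACG was found in 4 of the 8 (Klf2, Klf4, Klf13 and Klf15) against 17.8%, while the full site TGACGTCA, which contains it, was in 0 of 8 against 1.55%. A MEF2 site, the element through which ERK5 signalling induces Klf2, was found in 1 of the 8, Klf2, against 2.92%. Neither the CACCC box CCACACCC (3.2% of all promoters) nor a CArG box (1.47%) occurred in these 8. A match describes letters in this window and no binding was measured.

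The 10 transcripts differed widely in level. Per kilobase of gene length, the mean over the 38 libraries was 121 CPM for Klf2, 76.1 for Klf6 and 40.0 for Klf4. Klf10 had 21.5 CPM per kilobase, Klf11 13.5, Klf13 10.99 and Klf3 10.9. The lowest were Klf16 at 7.30, Klf7 at 6.78 and Klf15 at 3.75 CPM per kilobase. The highest, Klf2, is a short gene at chr8:72319033-72321656, and Klf6 lies at chr13:5861482-5870394, Klf4 at chr4:55527143-55532466, Klf10 at chr15:38291463-38300706 and Klf11 at chr12:24651274-24662789 (GRCm38, protein-coding genes in the deposited annotation). All other CPM values below are per gene and not per length, so they compare groups and not genes.

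**Figure D1:**
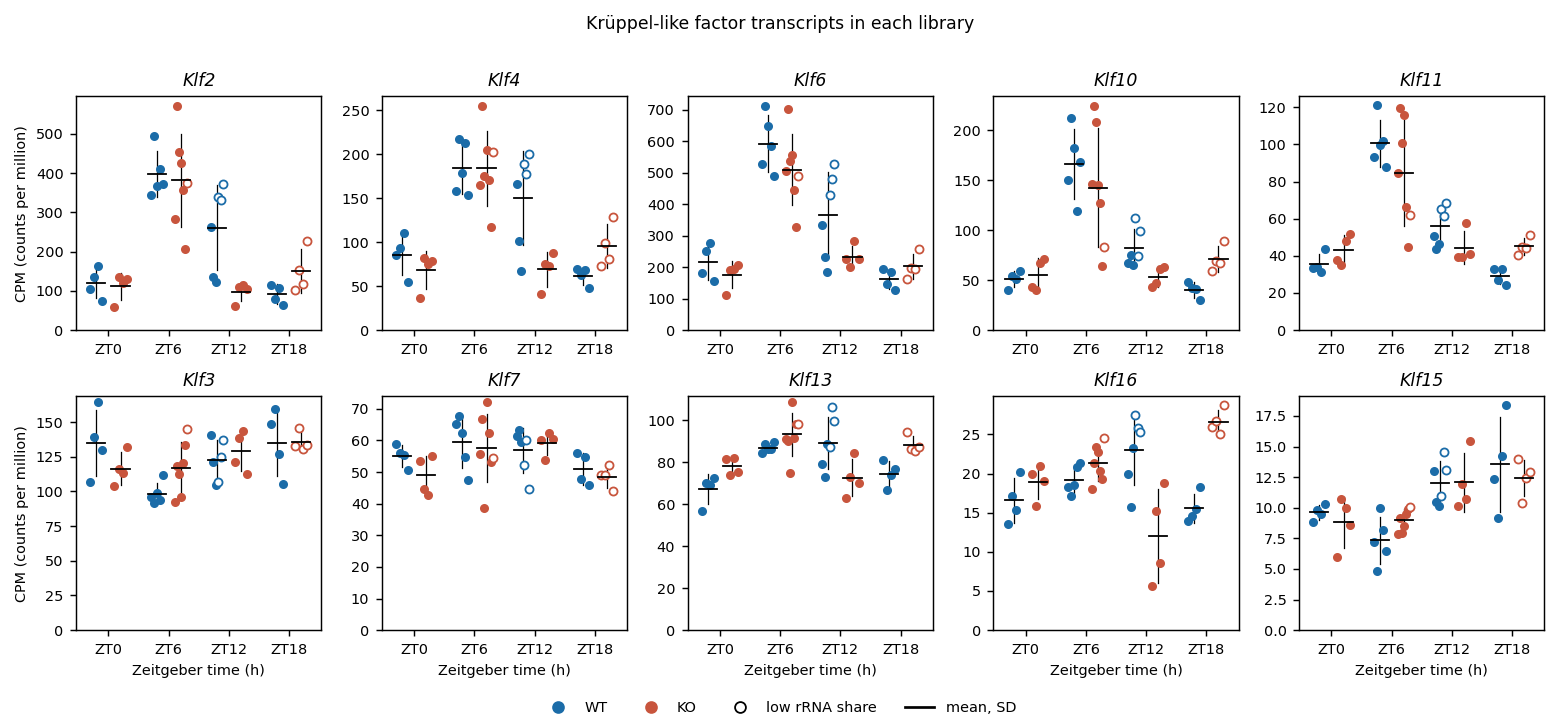
CPM of each KLF transcript (vertical axis, from 0) by zeitgeber time in hours and genotype. Each point is 1 library of 2 pooled mice, open points are the 8 low-rRNA libraries, and the bar and line are the mean and SD of a group. In Klf2, Klf4, Klf6, Klf10 and Klf11 both genotypes had their highest mean at ZT6, and in Klf2, Klf4 and Klf6 the 3 open points of WT at ZT12 lay above the 3 filled ones.

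Klf2, Klf4 and Klf6 were high at ZT6 in both genotypes. Klf2, which keeps endothelial cells and T cells quiescent, had 104, 135, 164 and 74.4 CPM in the WT libraries at ZT0 and 345, 496, 367, 411 and 374 CPM at ZT6. At ZT18 the WT values were 116, 79.2, 108 and 63.7 CPM. Every WT library at ZT6 lay above every WT library at ZT0 and ZT18. In KO, Klf2 had 59.9, 134, 121 and 129.6 CPM at ZT0 and ranged from 206 to 570.4 CPM at ZT6 (median 376), again without overlap. The group mean at ZT6 was 398 ± 59.4 CPM (SD, n = 5) in WT and 382 ± 118 CPM (SD, n = 7) in KO. Compared with ZT0, Klf2 rose by 1.74 on the log2 scale (SE 0.309, adjusted p 0.000391) in WT and 1.78 (SE 0.298, adjusted p 0.000253) in KO. All adjusted p-values come from the quasi-likelihood test of edgeR, corrected by the Benjamini-Hochberg method over every gene tested, and a transcript passed where it was under 0.05.

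Klf4, best known as a pluripotency factor and a close relative of Klf2, followed the same order. WT libraries had 85.3, 93.5, 110.0 and 54.9 CPM at ZT0 and 158, 217, 179, 213 and 154 CPM at ZT6. KO libraries had 36.7, 82.2, 75.4 and 78.7 CPM at ZT0 and 117 to 255 CPM at ZT6 (median 175). The groups did not overlap in either genotype. The rise was 1.10 on the log2 scale (SE 0.260, adjusted p 0.00987) in WT and 1.43 (SE 0.252, adjusted p 0.000414) in KO. The WT call was lost without WT ZT0 replicate 4, the lowest of its group (log2 fold change 0.93, adjusted p 0.0696).

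Klf6, the KLF tied to myelination through gp130 and STAT3 signalling, behaved alike. In WT it had 181, 252, 277 and 155 CPM at ZT0, 528, 713, 649.8, 584 and 491 at ZT6, and 195, 148, 186 and 127 at ZT18. In KO it had 112, 192, 195 and 207 CPM at ZT0, 329 to 703 CPM at ZT6 (median 507) and 161, 199, 193 and 257 at ZT18. ZT6 stood clear of both other times in both genotypes. The rise from ZT0 was 1.46 (SE 0.236, adjusted p 0.000135) in WT and 1.53 (SE 0.227, adjusted p 8.86e-05) in KO on the log2 scale.

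Klf10 and Klf11, repressors that recruit SIN3A and were found as TGF-beta inducible genes, also peaked at ZT6, with a wider spread in KO. Klf10 in WT had 40.5, 54.3, 51.5 and 59.2 CPM at ZT0, 150.0, 212, 182, 119 and 169 at ZT6 and 48.1, 41.7, 41.0 and 29.7 at ZT18. In KO it had 43.2, 40.6, 67.4 and 71.5 CPM at ZT0 and 63.8 to 224 at ZT6 (median 146). The KO groups overlapped because KO ZT6 replicate 6, at 63.8 CPM, fell among the ZT0 values. The rise from ZT0 was 1.70 (SE 0.255, adjusted p 4.84e-05) in WT and 1.36 (SE 0.240, adjusted p 0.000441) in KO. Klf11 had 33.2, 34.2, 31.4 and 43.7 CPM at ZT0 and 92.9, 121, 99.6, 102 and 87.9 at ZT6 in WT. In KO it had 37.6, 34.9, 48.1 and 51.7 CPM at ZT0 and 44.7 to 119.8 at ZT6 (median 84.9), with replicate 6 again lowest. Its rise was 1.4995 (SE 0.1997, adjusted p 2.31e-05) in WT and 0.98 (SE 0.186, adjusted p 0.000973) in KO. Whether the rise differed between genotypes was tested only with all times together, in the interaction test below.

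From ZT6 to ZT18 the same 5 genes were lower in both genotypes. The log2 fold change of ZT6 over ZT18 in WT was 2.12 for Klf2, 1.57 for Klf4, 1.86 for Klf6, 2.05 for Klf10 and 1.78 for Klf11, and each passed (adjusted p 0.000102 for Klf4 and lower for the others). In KO it was 1.35 for Klf2, 0.95 for Klf4, 1.33 for Klf6, 1.01 for Klf10 and 0.91 for Klf11, and each passed (adjusted p 0.0182 for Klf4 and lower for the others). These contrasts share their ZT6 libraries with those against ZT0 and are not separate evidence. In KO all 4 libraries at ZT18 had low rRNA, against 1 of 7 at ZT6, so time and rRNA share largely go together there. Only 3 of the 5 KO calls passed without KO ZT18 replicate 1, when Klf4 had 0.83 (adjusted p 0.108) and Klf10 0.92 (adjusted p 0.0572). Klf4 was also lost without KO ZT18 replicate 3 (0.87, adjusted p 0.0843), and Klf10 with a model term for the low-rRNA libraries (1.04, adjusted p 0.116).

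Of the 10 KLFs, 7 passed between ZT6 and ZT0 in WT, 6 of them higher, against 2.58% of all genes tested. In KO, 5 passed, all higher, against 10.2%. Between ZT6 and ZT18, 7 passed in WT, 5 of them higher at ZT6, against 4.6% of all genes, and 5 in KO, all higher at ZT6, against 5.03%. The median log2 fold change of the 10 was 0.74 in WT and 0.62 in KO for ZT6 over ZT0, beside medians of -0.02 and -0.01 over all genes. These 4 contrasts were added after the levels had been seen. Microglia markers rose beside the KLFs in KO: 10 of 15 passed from ZT0 to ZT6, with a median log2 fold change of 0.80 and sums of 4591 to 9188 CPM at ZT0 and 8454 to 20831 CPM at ZT6. Without the low-rRNA libraries 4 of the 15 passed in KO, at a median of 0.79. In WT none of the 15 passed, with a median of 0.18. Their part in the KLF rise was not tested. Endothelial markers had a median log2 fold change of -0.33 in WT and -0.34 in KO between the same times, where 4 of 14 were positive and 1 passed as higher. Neuron markers were lower at ZT6, 3 of 12 passing in WT and 7 in KO, with medians of -0.97 and -0.93. Against ZT18, markers of several other cells were lower at ZT6. Of 11 astrocyte markers 9 passed as lower in each genotype (medians -1.12 in WT and -0.92 in KO). In KO, 8 of 14 endothelial (median -1.26), 7 of 7 red blood cell (median -1.60), 5 of 9 oligodendrocyte (median -1.16) and 7 of 12 neuron markers (median -1.25) also passed as lower, and microglia markers had a median of -0.02 with 0 of 15 passing. Their part in the difference of the KLFs between ZT6 and ZT18 was not tested. In KO this contrast largely goes together with the rRNA split. With a model term for the low-rRNA libraries, all genes passing in it went from 1146 to 310.

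**Figure D2:**
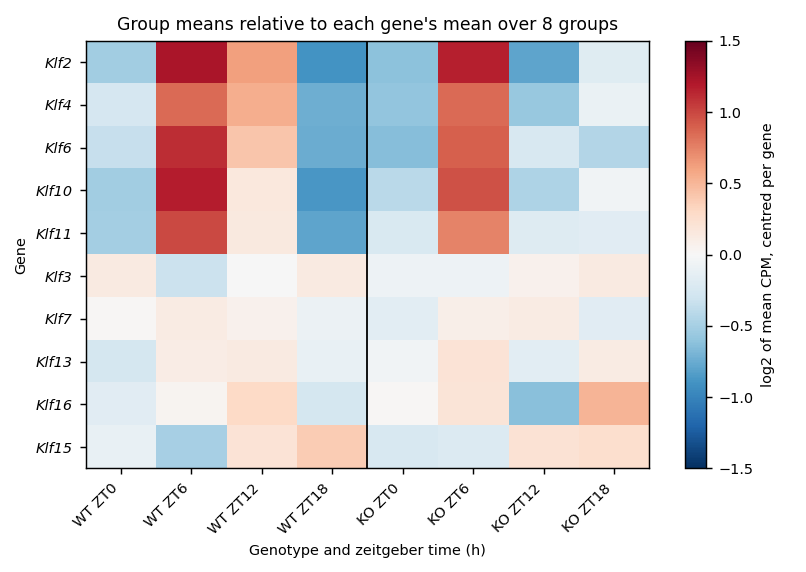
Log2 of each group's mean CPM minus the gene's mean over the 8 groups (colour), for 10 KLFs (rows) and genotype by zeitgeber time in hours (columns). Klf2, Klf4, Klf6, Klf10 and Klf11 had their highest group mean at ZT6 in both genotypes, and WT but not KO was above the gene's mean at ZT12.

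The other KLFs moved little or the opposite way. Klf15, a glucocorticoid-induced regulator of amino acid use, had its lowest WT mean at ZT6. In WT it had 8.87, 9.80, 9.47 and 10.3 CPM at ZT0, 7.22, 4.86, 9.998, 8.17 and 6.46 at ZT6 and 12.4, 9.15, 14.2 and 18.4 at ZT18. WT libraries at ZT12 ranged from 10.1 to 14.6 CPM (median 12.0), above all 5 at ZT6. The log2 fold change of ZT6 over ZT18 was -0.89 (SE 0.182, adjusted p 0.00146) in WT. In KO the same contrast was -0.47 (SE 0.167, adjusted p 0.0946), with 7.86 to 10.1 CPM at ZT6 and 14.0, 10.4, 12.5 and 12.9 at ZT18. Klf3, a repressor that works with CtBP, had 107, 139, 165 and 129.5 CPM at ZT0 and 96.0, 91.9, 99.1, 93.5 and 112 at ZT6 in WT. Its log2 fold change from ZT0 to ZT6 was -0.46 (SE 0.124, adjusted p 0.0324) in WT and 0.01 (SE 0.116, adjusted p 0.984) in KO. The WT call was lost without WT ZT0 replicate 2 or 3 or WT ZT6 replicate 1, 2, 3 or 4 (adjusted p 0.0599 to 0.186) and without the low-rRNA libraries (0.0525). ZT6 also lay below ZT18 in WT (-0.46, adjusted p 0.0211), a call lost without WT ZT6 replicate 2 or 4 or WT ZT18 replicate 1 or 2 (0.0510 to 0.117).

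Klf13, known for inducing CCL5 in T cells, rose by a small amount in WT, from 56.9, 70.2, 68.9 and 72.7 CPM at ZT0 to 84.3, 88.7, 86.2, 86.2 and 89.4 at ZT6. The groups did not overlap, and the log2 fold change was 0.37 (SE 0.0981, adjusted p 0.0263). In KO it was 0.25 (SE 0.0918, adjusted p 0.0694), and it passed without KO ZT6 replicate 3 (0.29, adjusted p 0.0298). The WT call was lost without WT ZT0 replicate 1 or 2 or WT ZT6 replicate 2 or 5 (adjusted p 0.0513 to 0.1499) and when counts were scaled by library size alone (0.134). Klf7, which promotes axon growth in neurons, stayed between 38.8 and 72.2 CPM in the 38 libraries, and its group means were 48.6 to 59.5 CPM. Klf16, a little-studied repressor, had group means of 15.5 to 22.9 CPM in WT. Neither of these 2 passed between ZT6 and ZT0 or between ZT6 and ZT18 in either genotype.

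Across all 4 times, 8 of the 10 passed in WT (all but Klf7 and Klf16) against 4.91% of genes tested, and 8 in KO (all but Klf3 and Klf7) against 21.9%. In WT the smallest adjusted p was 1.34e-07 for Klf11, followed by 6.72e-07 for Klf10 and 1.48e-06 for Klf6. In KO it was 8.90e-06 for Klf6, followed by 1.05e-05 for Klf2. Without the low-rRNA libraries 6 passed in WT (Klf3 at adjusted p 0.0804 and Klf13 at 0.111 did not). In KO 7 passed (Klf15 at 0.167 did not), but over ZT0, ZT6 and ZT12 alone, since every KO library at ZT18 was left out. Klf15 in KO, at an adjusted p of 0.0443 with all libraries, was also lost on leaving out a single library in 13 of 38 fits (0.0504 to 0.0915), namely without WT ZT6 replicate 1, KO ZT0 replicate 1 or 4, KO ZT6 replicates 1 to 5, KO ZT12 replicate 2 or 4, or KO ZT18 replicate 1, 3 or 4. Klf3 in WT, at 0.0404, was lost in 9 (0.0521 to 0.135), namely without WT ZT0 replicate 2 or 3, WT ZT6 replicates 1 to 4, WT ZT12 replicate 5 or WT ZT18 replicate 1 or 2. Klf13 was lost in WT without WT ZT0 replicate 1 (0.0599) and in KO without KO ZT12 replicate 1 (0.0527). With library size alone it was lost in both (0.0622 in WT and 0.102 in KO). Klf7 passed in KO without KO ZT6 replicate 3 (0.0289).

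The genotypes differed most at ZT12. Klf2, Klf4 and Klf16 were lower in KO, 3 of 10 KLFs, where 3.69% of all genes tested passed as lower and 5% in either direction. The median log2 fold change of the 10 was -0.48, beside -0.01 over all genes. Klf2 ranged from 122 to 372 CPM in WT (median 298) and was 61.4, 111, 115 and 105 CPM in KO, with no overlap. Its mean was 261 ± 108 CPM (SD, n = 6) in WT and 98.2 ± 24.8 CPM (SD, n = 4) in KO, which gave -1.41 on the log2 scale (SE 0.298, adjusted p 0.00515). Klf4 ranged from 67.5 to 200.3 CPM in WT (median 172) and was 41.3, 74.9, 72.9 and 87.8 CPM in KO, where 3 of 4 libraries lay above the lowest WT library. Its log2 fold change was -1.12 (SE 0.253, adjusted p 0.00853), and the call was lost without KO ZT12 replicate 1 (-0.93, adjusted p 0.0728). Klf16 ranged from 15.7 to 27.5 CPM in WT (median 24.3) and was 5.6001, 15.2, 8.57 and 18.8 CPM in KO, which overlapped. Its log2 fold change was -0.93 (SE 0.192, adjusted p 0.00451).

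The high WT values at ZT12 were those of the 3 low-rRNA libraries. In these, Klf2 was 331 to 372 CPM, against 122 to 264 CPM in the other 3, which were still above all 4 KO libraries. Klf4 was 178 to 200.3 CPM in the low-rRNA libraries and 67.5 to 166 in the others, and Klf16 25.4 to 27.5 against 15.7 to 23.3. With the 8 low-rRNA libraries left out none of the 3 passed: Klf2 had -0.83 (SE 0.305, adjusted p 0.340), Klf4 -0.69 (adjusted p 0.385) and Klf16 -0.70 (adjusted p 0.278). A model term for the low-rRNA libraries takes the same shift in every group. It gave -1.003 for Klf2 (adjusted p 0.136), -0.80 for Klf4 (0.162) and -0.74 for Klf16 (0.0834). All genes passing at ZT12 likewise went from 1139 to 1 and to 78. Of 10 mural cell markers, 10 were lower in KO at ZT12 and 1 passed (median log2 fold change -0.79), with sums of 106 to 222 CPM in KO, where up to 2 were at 0, and 120 to 390 CPM in WT. Of 15 OPC markers, 3 passed as lower, and of 15 microglia and 14 endothelial markers none did. The part of other cells in the KLF differences was not tested.

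**Figure D3:**
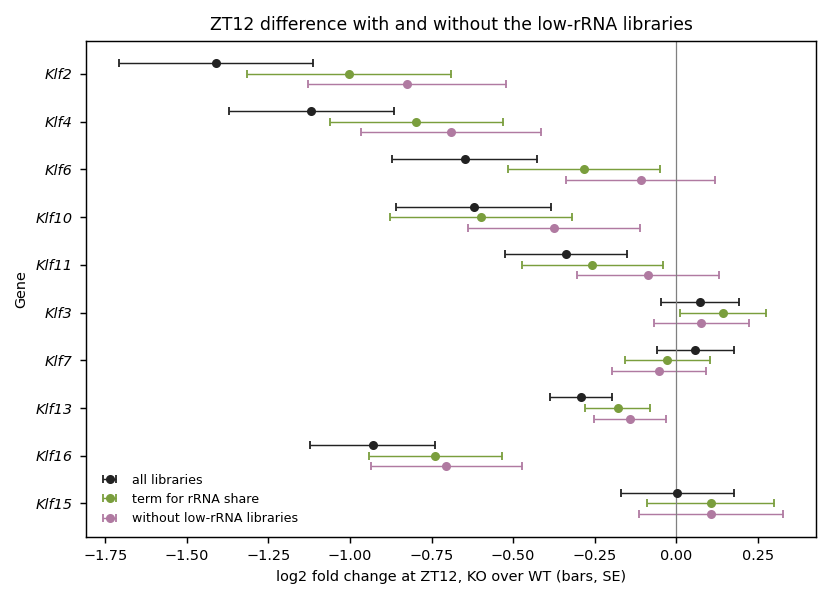
Log2 fold change of KO over WT at ZT12 (horizontal axis, bars are SE) for each KLF, with all 38 libraries, with a model term for the low-rRNA libraries, and with those 8 libraries left out. For Klf2 the estimate moved from -1.41 to -1.003 and -0.83, and for Klf6 it moved towards 0.

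Klf6, Klf10, Klf11 and Klf13 were lower in KO at ZT12 without passing. Klf6 had -0.65 (SE 0.223, adjusted p 0.0823), with 186 to 527 CPM in WT and 225, 199, 283 and 225 in KO. It passed when WT ZT12 replicate 2 (-0.75, adjusted p 0.0405) or replicate 3 (-0.78, adjusted p 0.0247) was left out. Klf10 had -0.62 (SE 0.239, adjusted p 0.124), with 65.3 to 112 CPM in WT and 42.7, 47.1, 61.3 and 63.2 in KO, which did not overlap. Klf11 had -0.34 (adjusted p 0.310). Klf13 had -0.29 (adjusted p 0.0621) and passed without WT ZT12 replicate 1 (-0.32, adjusted p 0.0407), WT ZT12 replicate 2 (-0.34, adjusted p 0.0252) or KO ZT6 replicate 3 (-0.29, adjusted p 0.0392). Klf3, Klf7 and Klf15 had 0.07, 0.06 and 0.00. WT ZT12 replicates 1, 2 and 3 were not low-rRNA libraries, so leaving any of them out raised the low-rRNA share of WT. With the low-rRNA libraries left out, the log2 fold change was -0.11 for Klf6, -0.37 for Klf10, -0.09 for Klf11 and -0.14 for Klf13. With the low-rRNA term it was -0.28, -0.60, -0.26 and -0.18.

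**Figure D4:**
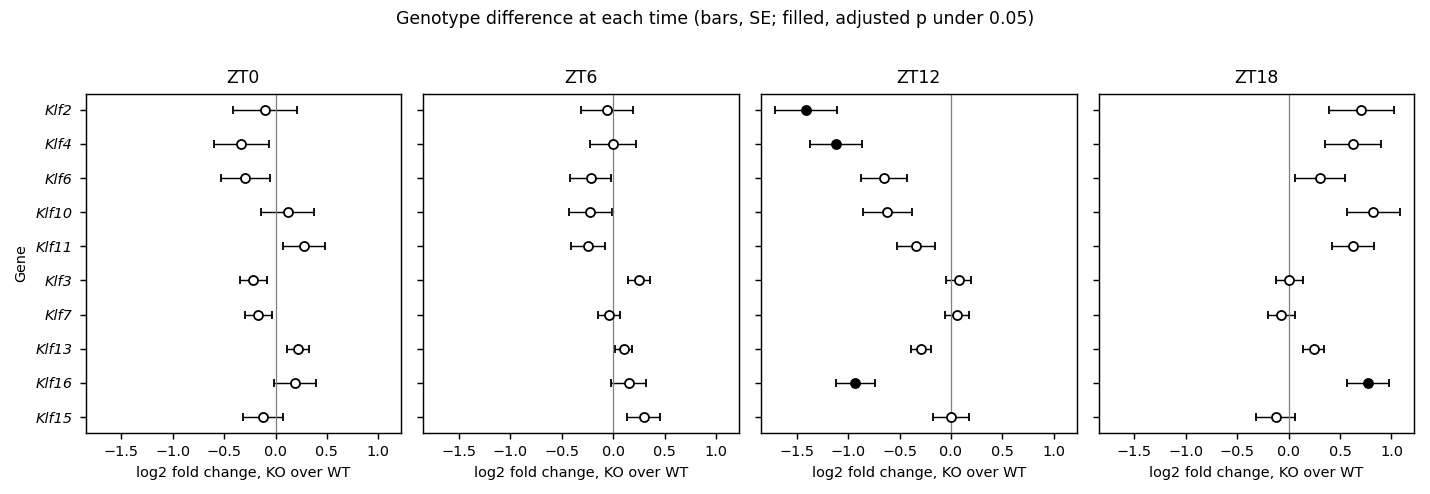
Log2 fold change of KO over WT (horizontal axis, bars are SE) for 10 KLFs at 4 zeitgeber times. Filled points passed at an adjusted p under 0.05: Klf2, Klf4 and Klf16 at ZT12, all lower in KO, and Klf16 at ZT18, higher in KO.

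At ZT18 the direction turned, and 8 of the 10 had a positive fold change of KO over WT, with a median of 0.47 beside -0.00 over all genes. Only Klf16 passed, where 2.14% of all genes passed in either direction and 1.39% as higher. Klf16 had 13.9, 14.5, 15.5 and 18.2 CPM in WT and 26.0, 26.7, 25.0 and 28.7 in KO, with no overlap, and its log2 fold change was 0.77 (SE 0.204, adjusted p 0.0376). Klf10 had 48.1, 41.7, 41.0 and 29.7 CPM in WT and 58.9, 69.2, 66.9 and 89.1 in KO, also without overlap (0.82, SE 0.259, adjusted p 0.0752), and passed without KO ZT6 replicate 6 (adjusted p 0.0464). Klf11 had 33.0, 26.8, 32.6 and 24.5 CPM in WT and 40.3, 44.6, 44.3 and 51.2 in KO, without overlap (0.63, SE 0.204, adjusted p 0.0860). Klf2 had 0.71 (adjusted p 0.214), Klf4 0.63 (adjusted p 0.198) and Klf6 0.31 (adjusted p 0.535). The Klf16 call was lost when any of the 8 libraries at ZT18 was left out (adjusted p 0.0664 to 0.127), with library size scaling (0.0543) and with the low-rRNA term (0.42, adjusted p 0.865).

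All 4 KO libraries at ZT18 had low rRNA and all 4 WT libraries did not, so both go together here. The low-rRNA term is set by WT at ZT12 and KO at ZT6, the groups with both kinds of library. Its values at ZT18 are carried over from those groups and cannot tell rRNA share from genotype. Over all times Klf16 was 24.5 to 28.7 CPM in the 8 low-rRNA libraries and 5.6001 to 23.4 CPM in the other 30, without overlap. Markers of other cells differed as well. Endothelial markers summed to 167 to 215 CPM there and to 108 to 166 CPM in WT, oligodendrocyte markers to 534 to 719 against 294 to 346 CPM, and red blood cell markers to 4651 to 7812 against 3091 to 3516 CPM. Mural cell markers summed to 256 to 392 CPM in KO and 143 to 239 CPM in WT, and 10 of 10 were positive without passing (median log2 fold change 1.10). All 14 endothelial and all 15 microglia markers had a positive fold change without passing, and 4 of 9 oligodendrocyte markers passed. None of the endothelial, mural or red blood cell markers was at 0 in these libraries, and at most 1 oligodendrocyte marker was. Their part in the KLF differences was not tested.

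The genotype difference depended on time for 6 of the 10 KLFs by the interaction test, against 9.19% of all genes tested. Klf16 had the smallest adjusted p at 0.00103, followed by Klf2 at 0.00785, Klf4 at 0.0103, Klf13 at 0.0216, Klf10 at 0.0284 and Klf11 at 0.0391. Klf6 (0.202), Klf3 (0.247), Klf15 (0.522) and Klf7 (0.805) did not pass. Leaving out the low-rRNA libraries, and with them all of KO ZT18, none of the 6 passed (adjusted p 0.279 to 0.772), nor with the low-rRNA term (0.184 to 0.602). Klf2, Klf4 and Klf16 passed whichever single library was left out. Klf10 was lost without WT ZT12 replicate 4, WT ZT18 replicate 3 or 4, KO ZT12 replicate 1 or 2 or KO ZT18 replicate 4 (0.0515 to 0.0799), Klf13 without WT ZT12 replicate 5 (0.0521) or KO ZT12 replicate 1 (0.104), and Klf11 in 17 of 38 such fits (0.0514 to 0.0898): WT ZT0 replicates 1 to 3, WT ZT6 replicate 2, WT ZT12 replicates 4 to 6, WT ZT18 replicates 2 to 4, KO ZT0 replicate 3, KO ZT12 replicates 1, 2 and 4 and KO ZT18 replicates 2 to 4.

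No KLF passed between genotypes at ZT0, at ZT6 or over all times together. Over all genes tested, 0.285% passed at ZT0, 0.0132% at ZT6 and 0.0921% over all times. At an unadjusted p under 0.05 there was 1 KLF of 10 at ZT0, Klf13 (log2 fold change 0.22, adjusted p 0.250), beside 4191 of 22798 genes. At ZT6 there was 1, Klf3 (0.25, adjusted p 0.974), beside 1000 genes, and over all times there was 0 beside 3444. DESeq2 and limma-voom also called 0 KLFs in these 3 comparisons. At ZT6, where the transcripts were highest, the difference was -0.06 for Klf2 (SE 0.257), -0.00 for Klf4 (SE 0.221) and -0.22 for Klf6 (SE 0.198), so a difference of about the size of these errors was not detectable.

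The transcripts most like each KLF over the 38 libraries were found by Pearson correlation of log2 CPM among 12683 genes. This is a description, since libraries of a group share their time and genotype. The low-rRNA libraries are among the 38, and Klf16 had no overlap between them and the others. Klf2 and Klf4 were each other's closest match (r 0.979, Spearman's rho 0.947, n = 38), and Btg2, an early-response gene that restrains proliferation, came next for both (0.966 and 0.949). Klf6 lay closest to Spty2d1 (0.969), Btg2 (0.967) and Nfkbiz (0.966). Klf10 was closest to Hmox1, the heme oxygenase induced by oxidative stress (0.973), Pmaip1 (0.972) and Zc3h12a (0.969). Klf11 was closest to Csf1 (0.965), Gem (0.9603) and Hmox1 (0.959). The remaining KLFs had looser matches: Klf16 with Ptms, Map7d1 and Prr7 (0.885 to 0.890), Klf3 with Fam111a, Atmin and Mfap3 (0.836 to 0.847), Klf15 with Id3, Slc20a2 and Gpc4 (0.802 to 0.846), Klf7 with Nsd1, Tet2 and Pou2f1 (0.765 to 0.788) and Klf13 with Trappc9, Trim8 and Cfap43 (0.742 to 0.754). Among the KLFs themselves, Klf10 and Klf11 had r 0.96 and Klf2 and Klf6 0.95. Klf15 was negative with both Klf10 and Klf11 (-0.51 each), and so was Klf3 (-0.48 and -0.55).

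Relatives and partners of the 10 were counted from lists of names. Of 16 other KLF and SP genes, 13 were tested, and from ZT0 to ZT6 none passed in WT (median log2 fold change -0.05) or in KO (median -0.31). Klf9 had group means of 18.3 CPM at ZT6 and 24.4 at ZT12 in WT, and its highest mean was 29.2 ± 3.70 CPM (SD, n = 4) in KO at ZT18. It was lower at ZT6 than at ZT18 in KO (-0.69, adjusted p 0.00978), where all 4 libraries at ZT18 and 1 of 7 at ZT6 had low rRNA. In WT, without low-rRNA libraries at these times, the means were 18.3 CPM at ZT6 and 22.5 CPM at ZT18, and the groups overlapped. Of 12 partner proteins of KLFs, none passed in WT from ZT0 to ZT6 and 4 did in KO, beside 2.58% and 10.2% of all genes. In KO 3 of them were higher, among them the coactivators Ep300 (0.37) and Crebbp (0.33), while the deacetylase Hdac2 was lower (-0.26). Wwp1, a ubiquitin ligase of KLF proteins, was higher in KO at ZT12 (0.40).

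Genes of pathways tied to KLFs of the ZT6 group were counted, and no order of regulation between them and the KLFs was tested. The shares of all genes that passed, 2.58% in WT and 10.2% in KO from ZT0 to ZT6, stand beside these counts, and 1 call in a list of this size is near the WT share. Of 11 genes of the ERK5 and MEF2 pathway, which induces Klf2 and Klf4, 1 rose from ZT0 to ZT6 in WT, Mef2d (0.62), and 5 in KO, among them Mef2d (0.62), Map3k3 (0.58) and Hdac5 (0.31). Hdac5, which holds MEF2 inactive, was lower in KO at ZT12 (-0.44). Of 14 TGF-beta pathway genes, 4 rose in WT, namely the feedback inhibitor Smad7 (1.32), Tgif1 (1.30), Skil (0.83) and Smad3 (0.67), and 9 in KO, the same 4 among them (1.49, 1.43, 0.74 and 0.78). At ZT12 Smad7 was lower in KO (-1.01), and at ZT18 2 genes were higher, among them Tgif1 (1.14). Of 12 gp130 and STAT3 genes, the pathway tied to Klf6, 1 rose in WT, the kinase Pim1 (1.62), and 5 in KO, among them Pim1 (1.21), Socs3 (1.15) and Tyk2 (0.60). Pim1, Socs3 and Cntfr were lower in KO at ZT12 (-0.85, -0.91 and -0.52), and Pim1 and Socs3 higher at ZT18 (1.02 and 0.96).

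Immediate early genes, which like Klf2, Klf4 and Klf6 respond quickly to stimuli, were higher at ZT6 than at ZT0 in part. Of 27, 10 rose from ZT0 to ZT6 in WT and 18 in KO, with medians of 0.83 and 1.25, beside 2.58% and 10.2% of all genes passing. Atf3 (2.64 and 2.49), Maff (2.62 and 2.14), Dusp5 (2.68 and 1.67) and Btg2 (1.36 and 1.77) rose in both. At ZT12 all 27 had a negative fold change of KO over WT and 11 passed (median -0.84), and at ZT18 10 passed as higher (median 0.71), beside 5% and 2.14% of all genes. Without the low-rRNA libraries the 27 were still negative at ZT12 (median -0.44) and 0 passed. With the low-rRNA term 1 passed at ZT12, Jund (-0.96, adjusted p 0.0214), and 0 at ZT18, where the median was -0.02. Of 12 glucocorticoid-responsive genes tested, 7 rose in WT and 6 in KO from ZT0 to ZT6. Among them were Per1 (1.52 and 1.501), Sgk1 (1.37 and 1.64), Nfkbia (1.39 and 1.42) and Errfi1 (0.93 and 1.06). Klf15, itself induced by glucocorticoids, did not pass as higher at ZT6 in either genotype. The part of glucocorticoids was not tested. Of 14 described KLF target genes, 1 rose in WT, the cell cycle inhibitor Cdkn1a (1.10). In KO Cdkn1a (1.38) and Eng (1.04) rose and Maoa (-0.31) fell, and at ZT12 Cdkn1a was lower in KO (-0.85). Of the genotype calls named here for partners, pathways and targets at ZT12 (Wwp1, Hdac5, Smad7, Pim1, Socs3, Cntfr and Cdkn1a), 0 passed without the low-rRNA libraries or with the term. At ZT18 0 of those named (Tgif1, Pim1 and Socs3) passed with the term, which is carried over there from other groups.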

How the data were processed

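Per the labels' protocols, poly(A) RNA of OPC pools was made into NEBNext Ultra II libraries and sequenced paired-end. The deposited values are whole-number counts of reads by gene, 1 column per library. The submitters' processing notes name HISAT2 2.0.5, featureCounts 1.5.0-p3, fastp and the build GRCm38/mm10. For the strand setting and annotation release the entry is "not given in the sources used here", and without strand, overlapping antisense genes cannot be told apart.

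All 38 libraries entered 1 model of 8 groups in edgeR 4.0.16 (R 4.3.3, limma 3.58.1) with TMM scaling and the filterByExpr low-count filter by group, which kept 22798 of 54532 genes and 99.9% of counts. Tests were quasi-likelihood F tests, contrasts between 2 groups or joint tests of 3 degrees of freedom for time and for genotype by time, with Benjamini-Hochberg adjustment over all genes at 0.05. Log2 CPM used a prior count of 2. The ZT6 contrasts, and the rRNA settings for the gene lists, were added after the data had been seen. The alternatives were RLE scaling, library size alone, no filter, DESeq2 1.42.0, limma-voom, a replicate block, leaving out each library, and the low-rRNA libraries left out or given a model term. The pipeline was tested on simulated data.

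The 10 KLFs, the pathway and marker lists, and the tests were chosen with earlier results of these data known. Genes named in a pathway list are up to 4 called members with the smallest adjusted p, and likeness names 3 genes per KLF by Pearson r among genes with mean log2 CPM above 1. A check for duplicated libraries over 12966 genes found no pair within a group that agreed within sampling noise. Depth of 19.4 to 39.01 M counts limits low transcripts such as Klf15 most. Promoters are from RefSeq (GRCm38.p6), and those of Klf10 and Klf16 were not used here.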

Additional observations from a re-analysis of the deposited data

Results flagged for a closer look

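Among 80 groups of libraries checked for a value standing apart, 3 were marked, and chance marks about 1 in 20. Klf4 was 36.7 CPM in KO ZT0 replicate 1 against 75.4 to 82.2 CPM in the other 3 libraries, and Klf6 was 112 CPM in that same library against 192 to 207 CPM. Klf11 was 57.7 CPM in KO ZT12 replicate 3 against 39.1 to 41.0 CPM.

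The difference between genotypes changed with time of day by edgeR's interaction test in 6 KLFs. The adjusted p was 0.00785 for Klf2, 0.0103 for Klf4, 0.0284 for Klf10, 0.0391 for Klf11, 0.0216 for Klf13 and 0.00103 for Klf16. Klf2, Klf4, Klf10 and Klf11 had lower means in KO than in WT at ZT12 and higher means at ZT18, and so did Klf13 and Klf16. The 8 low-rRNA libraries are 3 of the 6 WT libraries at ZT12, 1 of the 7 KO libraries at ZT6 and all 4 KO libraries at ZT18. None of the 6 KLFs passed without them, in a test that then no longer covers ZT18.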

How the results depend on the processing

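With RLE scaling, DESeq2, limma-voom or the replicate block, the number of KLFs called stayed within 1.5 times in all 12 comparisons. At ZT12 the 3 calls went to 0 without the low-rRNA libraries and to 0 with a term for them. At ZT18 the 1 call went to 0 with library size alone, to 2 without the low-count filter (Klf10, adjusted p 0.0443) and to 0 with the rRNA term. Of the 6 interaction calls 0 were left under both rRNA settings. Klf11 was also lost with RLE scaling (adjusted p 0.0589) and with library size alone (0.0558), and Klf13 with library size alone (0.0732). ZT18, and ZT6 against ZT18 in KO, had no value without the low-rRNA libraries. The test of time in KO, the interaction and the genotype difference over all times then covered ZT0, ZT6 and ZT12 alone. Leaving out 1 library gave 2 to 5 calls at ZT12, 0 to 2 at ZT18, 3 to 6 for the interaction and 3 to 5 for ZT6 against ZT18 in KO. No value that passed changed sign, with all libraries or under an alternative. Of 700 KLF fold changes under the alternatives, leaving out single libraries aside, 27 changed sign. Among them was Klf6 at ZT18, from 0.31 to -0.30 with the rRNA term, which is carried over there from other groups. The cause of these changes was not tested.

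Counts over all genes moved more. The interaction (2096) had 3166 calls with DESeq2, 0 without the low-rRNA libraries and 43 with the term, ZT12 (1139) had 726 with the block, 1 and 78, and ZT18 (488) had 1211 with DESeq2, 746 with limma-voom, 996 with the block and 2 with the term. At ZT0 (65) DESeq2 called 1018, the block 467, and the rRNA settings 4 and 115. Over all times (21) DESeq2 called 244 and the rRNA settings 5 and 8, and ZT6 (3) had 1 without the low-rRNA libraries. Time in KO (5001) fell to 2050 and 2656 and time in WT (1120) to 724, against 1778 with DESeq2. ZT6 against ZT18 in KO (1146) had 1866 with DESeq2, 2706 with the block and 310 with the term. Single libraries moved these counts from 44 (without KO ZT18 replicate 4) to 761 at ZT18, from 259 to 1357 at ZT12, and from 1 to 2208 (without WT ZT0 replicate 4) at ZT0.

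The share of calls that were higher depended on scaling: at ZT12 26.2% by TMM, 34.7% by RLE and 42.3% by library size alone, and at ZT18 65.2%, 50.3% and 43.3%. Library size alone moved the median of all genes from -0.02 to -0.12 between ZT6 and ZT0 in WT.

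Replicate numbers gave no clear pairing of the libraries. Over 116 same-numbered pairs the correlation of deviations ran from -0.423 to 0.534, and 48 were above 0.1. The median was 0.0552, against -0.00786 for differently numbered pairs, and 8 of 38 libraries correlated best with their own number. This check cannot exclude that some same-numbered libraries belong together. With the block, 3 KLFs were called at ZT12, 1 at ZT18 and 5 for the interaction, where Klf13 had an adjusted p of 0.0634. The block also ended the Klf13 calls over time (0.0588 in WT and 0.0528 in KO).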
